A study of Homo sapiens with 12 samples.

Results

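HOX cluster genes were taken as every gene of the platform annotation whose symbol is HOX, a cluster letter from A to D and a number. Each gene was represented by its brightest probe set (a group of short oligonucleotides that together report 1 transcript), by mean log2 signal over the 12 arrays, among those that name 1 gene. Of the 18132 genes represented in this way, 27 were HOX cluster genes: 1 HOXA, 10 HOXB, 9 HOXC and 7 HOXD genes, covered by 47 probe sets. HOXD3 and HOXD11 had only probe sets shared with other genes and received no value, and the 10 other HOXA genes were not analysed here.

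The study used 12 Affymetrix PrimeView arrays, which hybridise biotin-labelled RNA to short probes, on 2 human lines named as uveal melanoma, a tumour of the pigment cells of the eye. The groups were OCM1 cells that overexpress CANT1 (a long noncoding RNA from the CASC15 locus), wild type OCM1 cells, MUM2B cells that overexpress CANT1, and wild type MUM2B cells, with 3 arrays each. The labels of replicates 2 and 3 give the source of these controls as wild type and their genotype as control. They describe no empty vector, so CANT1 cannot be told apart from vector or selection. No probe set was matched to the CANT1 transcript itself, and its level is not given. The growth label of replicate 1 names puromycin selection and that of replicates 2 and 3 names medium with serum; separate cultures are not stated, so each p-value reflects array-to-array spread that could be technical.

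HOX genes encode homeodomain transcription factors that give cells their position along the body axis. They lie in clusters in which the low-numbered genes are used towards the head and the high-numbered genes towards the tail, and genes of the same number in different clusters, called paralogues, encode closely related proteins. The proteins bind DNA with partners of the PBX, MEIS and PKNOX families. The neural crest of the front of the head, from which uveal pigment cells come, forms ahead of the region of HOX expression.

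Annotated starts are printed for 6 HOX genes, as the 250 bases before the start in RefSeq (GRCh38.p14), 5′ to 3′ on the strand of the gene. The table of promoters matched 10 of the 27 genes, and genes such as HOXB2, HOXB4 and HOXC10 were not among them. HOXC4 and HOXC5 are shown because they share a single annotated window, with 250 of 250 bases identical, on the plus strand at chr12:54016638-54016887. HOXD13 (plus strand, chr2:176092471-176092720) and HOXD4 (plus strand, chr2:176151300-176151549) are shown because they differed between the lines in opposite directions. HOXA2 (minus strand, chr7:27102684-27102933) and HOXB1 (minus strand, chr17:48531012-48531261) are shown because they are low-numbered genes, 1 called between the lines and 1 dim on all arrays. Capitals mark matches, on either strand, to TATAAA, the TATA box, and to TGATNNAT, a joint PBX and HOX motif.
HOXC4 and HOXC5: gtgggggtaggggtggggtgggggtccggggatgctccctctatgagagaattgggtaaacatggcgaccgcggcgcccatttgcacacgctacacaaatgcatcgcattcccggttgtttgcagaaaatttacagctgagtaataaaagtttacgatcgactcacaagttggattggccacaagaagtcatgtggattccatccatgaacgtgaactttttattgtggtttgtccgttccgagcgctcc
HOXD13: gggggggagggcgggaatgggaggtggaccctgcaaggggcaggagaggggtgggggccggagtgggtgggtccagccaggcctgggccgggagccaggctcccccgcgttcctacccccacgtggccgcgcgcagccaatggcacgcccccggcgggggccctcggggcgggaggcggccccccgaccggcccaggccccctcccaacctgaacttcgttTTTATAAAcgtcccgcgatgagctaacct
HOXD4: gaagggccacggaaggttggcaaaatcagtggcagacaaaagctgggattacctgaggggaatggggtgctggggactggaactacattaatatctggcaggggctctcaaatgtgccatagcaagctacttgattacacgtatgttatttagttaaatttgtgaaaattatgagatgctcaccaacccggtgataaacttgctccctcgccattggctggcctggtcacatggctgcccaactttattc
HOXA2: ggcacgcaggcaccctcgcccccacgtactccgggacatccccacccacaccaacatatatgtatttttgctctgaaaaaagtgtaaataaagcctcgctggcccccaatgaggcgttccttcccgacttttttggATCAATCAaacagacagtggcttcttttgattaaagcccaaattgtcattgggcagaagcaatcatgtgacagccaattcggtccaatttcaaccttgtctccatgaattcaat
HOXB1: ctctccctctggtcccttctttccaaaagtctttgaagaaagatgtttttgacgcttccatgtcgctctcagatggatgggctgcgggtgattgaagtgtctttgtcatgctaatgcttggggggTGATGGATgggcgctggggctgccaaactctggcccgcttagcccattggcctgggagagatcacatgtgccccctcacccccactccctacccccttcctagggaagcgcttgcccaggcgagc
Over all 35116 promoters of the same length, 10.7% held TATAAA and 6.47% held TGATNNAT. HOXD13 held 2 overlapping TATAAA matches, 1 on each strand, which begin 29 and 27 bases before the start. HOXA2 and HOXB1 each held 1 TGATNNAT match, beginning 114 and 125 bases before the start. The windows of HOXC4, HOXC5 and HOXD4 held neither motif. CpG pairs numbered 21 in the HOXD13 window, 14 in the shared HOXC window and 4 in the HOXD4 window, where the median promoter held 11. A match is a run of letters and not a shown binding site.

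Signals below are scaled so that every array has a trimmed mean of 500, and differences are on the log2(signal + 32) scale, which understates the fold of dim genes; ± is the standard error unless SD is written. A gene was tested if its signal reached 100 on at least 3 arrays, and 22 of the 27 HOX genes did. HOXB1, HOXC11, HOXC12, HOXD1 and HOXD12 stayed below 100 on all 12 arrays. Their ranges over the arrays were 48.9 to 70.6 for HOXB1, 45.7 to 85.7 for HOXC11, 36.7 to 61.3 for HOXC12, 32.3 to 92.6 for HOXD1 and 14.6 to 23.5 for HOXD12. HOXB1 patterns the hindbrain and HOXD12 the digits, and neither gave more than a dim signal in these cells.

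**Figure D1:**
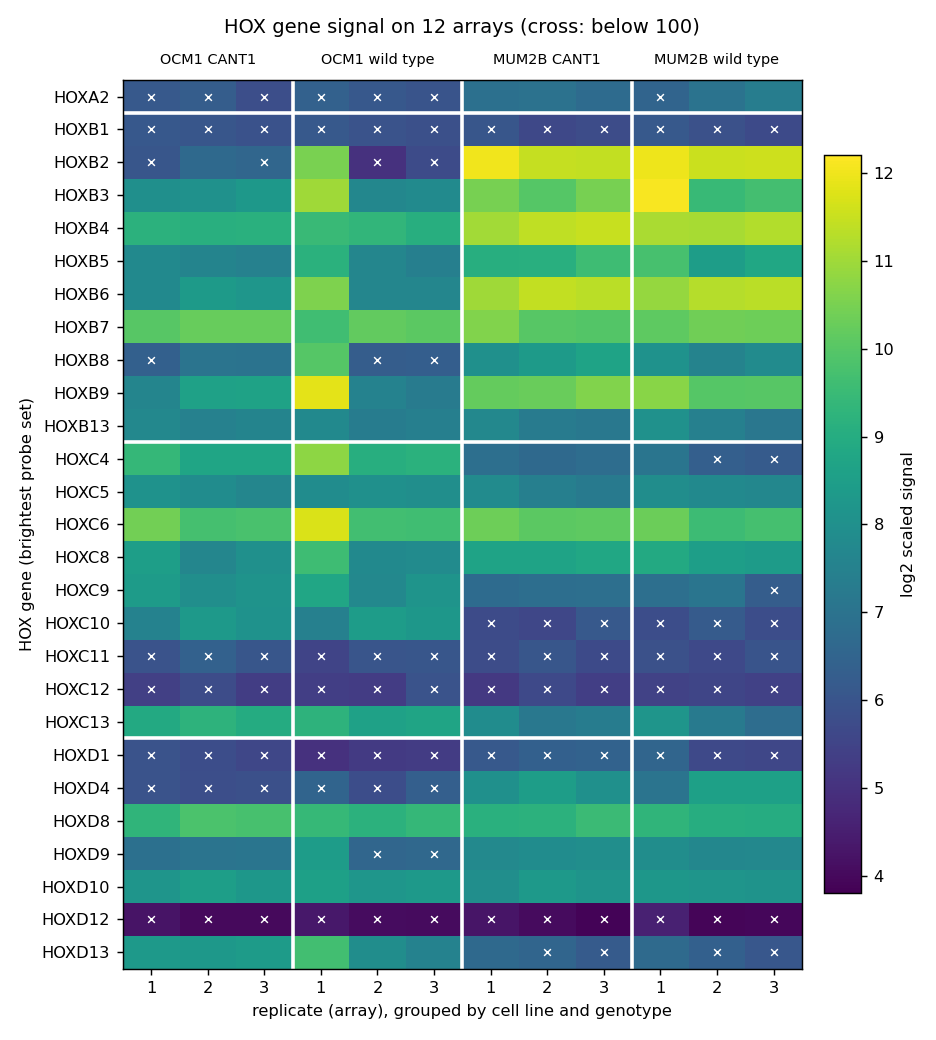
Log2 scaled signal of the 27 HOX genes (rows, ordered by cluster and number) on the 12 arrays (columns, 3 replicates per group), with a cross where the signal is below 100. HOXB2, HOXB4 and HOXB6 are bright on all 6 MUM2B arrays, HOXC4, HOXC10 and HOXD13 are brighter in OCM1, and wild type OCM1 replicate 1 differs from the other 5 OCM1 arrays.

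The array of wild type OCM1 replicate 1 stood apart from its group. Line differences without it are given for the HOX genes whose call changed when it was left out, and for some others. Over the 27 HOX genes its mean correlation was 0.674 with the other OCM1 arrays and 0.739 with the MUM2B arrays, while the other 11 arrays had mean correlations of 0.897 to 0.981 with the other arrays of their own line. These are correlations across genes, which are not independent replicates. Over all tested genes, its mean correlation was 0.828 with OCM1 and 0.795 with MUM2B arrays. It was the highest of the 12 arrays for 9 of the 27 HOX genes, beside 23.6% of all tested genes. The summed signal of 7 melanocyte markers (MITF, PMEL, MLANA, TYR, TYRP1, SOX10 and S100B) was 14220 on it, against 75070 to 81560 on the other OCM1 arrays. The keratin KRT8 was at 119 on this array, against 46.1 to 99.5 on the other OCM1 arrays and 2929 to 7929 in MUM2B. The endothelial cadherin CDH5 was at 63.3, against 46.6 to 87.3 on the other OCM1 arrays and 2385 to 4634 in MUM2B. KRT18 at 1215 and KRT19 at 89.6 also lay below every MUM2B array. The endothelial markers PECAM1 at 133 and VWF at 209 lay inside the MUM2B ranges of 90.8 to 579 and 112 to 226.

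The labelled cell type was checked against the same markers. On the OCM1 arrays all 7 melanocyte markers reached 100. On the MUM2B arrays their summed signal was 620.3 to 829.3 and 4 of the 7 reached 100, with MLANA at 36.3 to 55.5 and TYRP1 at 19.0 to 21.8. The pigment markers PMEL, MLANA, TYR and TYRP1 reached 166 at most in MUM2B and were at 922 or more on every OCM1 array. SOX10 was less separate, at 138 to 197 in MUM2B and 154 to 545 in OCM1. Its lowest OCM1 value was on wild type OCM1 replicate 1, inside the MUM2B range. The 5 epithelial markers summed to 1478 to 1929 in OCM1 and 14900 to 23270 in MUM2B, where KRT8, KRT18 and KRT19 reached 100. The defining epithelial markers EPCAM (25.3 to 61.4) and CDH1 (44.2 at its highest) stayed below 100 on all 12 arrays. The part of lineage in the HOX differences below was not tested.

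Which HOX genes differ between the lines was asked with the 6 OCM1 arrays against the 6 MUM2B arrays. With limma over 12715 genes, 12 of the 22 tested HOX genes passed an adjusted p of 0.05, 5 higher and 7 lower in OCM1. Of all tested genes, 48.9% passed, 28.1% higher and 20.8% lower, so the count by itself says nothing particular about HOX genes. HOXC10 reached 100 on 0 MUM2B arrays, and HOXA2 and HOXD4 on 0 OCM1 arrays. HOXB2 reached it on 1 array of each OCM1 group and HOXD13 on 1 of each MUM2B group. These genes passed the filter only through the line where they are high, so their calls are not independent of it. HOXB members were on the low side in OCM1: of 10, 9 were tested, 5 were called lower and 0 higher. HOXC members were on the high side: of 9, 7 were tested, 4 were called higher and 0 lower. The median difference was -1.37 over the 10 HOXB genes and 0.22 over the 9 HOXC genes, beside 0.00459 over all 27 HOX genes and 0.0471 over all 18132 genes. Of the 7 HOXD genes, 1 was called higher and 1 lower, and the HOXA gene was called lower. All 12 called genes had the same sign within replicate 1 (1 array per group) and within replicates 2 and 3. They were called from these same arrays, so this agreement is not an independent check. In these arrays of whole cultures, fewer cells with a transcript and less transcript per cell cannot be told apart.

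**Figure D2:**
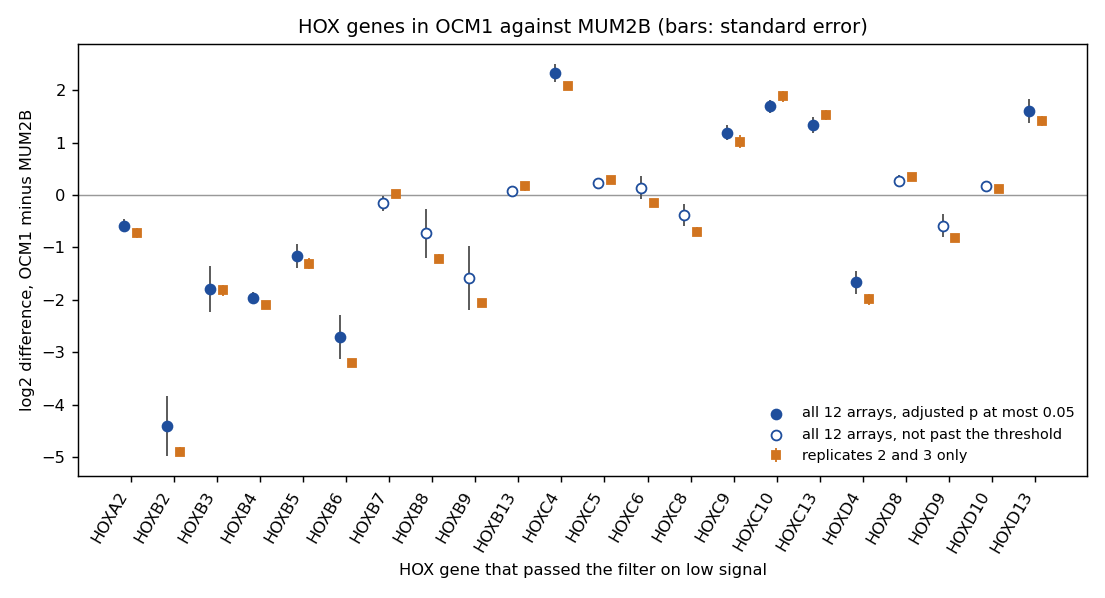
Log2 difference between OCM1 and MUM2B, with its standard error, for the 22 HOX genes that passed the filter, from all 12 arrays (circles, filled where the adjusted p is at most 0.05) and from replicates 2 and 3 alone (squares). HOXB2 is lowest in OCM1 at -4.41 and HOXC4 highest at 2.33, and HOXB8, HOXB9, HOXC8 and HOXD9 lie further below 0 with replicates 2 and 3 alone.

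Among the low-numbered genes, those with paralogue numbers 1 to 3, 3 of 5 were tested. All 3 were lower in OCM1 and 0 higher, beside 20.8% and 28.1% of all tested genes. HOXA2 and HOXB2 passed the filter only through MUM2B, so this count is not independent of the filter. Classes this small were not tested as sets. HOXB2, which patterns the hindbrain and second branchial arch, had signals of 65.5, 102 and 95.2 in CANT1 OCM1 cells and 1453, 31.7 and 53.1 in wild type OCM1 cells, against 4106, 2806 and 2788 in CANT1 MUM2B cells and 4034, 2963 and 3027 in wild type MUM2B cells. Every MUM2B array was above every OCM1 array, and 5 of the 6 OCM1 arrays were at 102 or less. The difference was -4.41 ± 0.57 (21.2-fold, limma adjusted p = 0.000163), with -3.43 within replicate 1 and -4.90 ± 0.09 within replicates 2 and 3. Without wild type OCM1 replicate 1 it was -5.10.

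HOXB3, a hindbrain gene next to HOXB2 in number, had 252, 267 and 309 in CANT1 OCM1 cells and 2066, 204 and 228 in wild type OCM1 cells, against 1437, 1009 and 1417 in CANT1 MUM2B cells and 4451, 712 and 833 in wild type MUM2B cells. Wild type OCM1 replicate 1 lay inside the MUM2B range and all other OCM1 arrays lay below it. The difference was -1.79 ± 0.44 (adjusted p = 0.00705), or -2.16 without that array. The other 3 probe sets of HOXB3 were dimmer, and the brightest of them had 79.6 to 305 in OCM1 and 226 to 805 in MUM2B, which overlapped.

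HOXA2, which specifies the second branchial arch, was close to background on all arrays. It had 70.2, 78.0 and 56.0 in CANT1 OCM1 cells and 84.0, 69.8 and 62.6 in wild type OCM1 cells, against 119, 126 and 107 in CANT1 MUM2B cells and 91.2, 127 and 166 in wild type MUM2B cells. The lines did not overlap, and the difference was -0.59 ± 0.12 (adjusted p = 0.00332), under the 2-fold threshold used as an alternative. The dimmer second probe set of HOXA2 had 18.1 to 33.1 in OCM1 and 18.8 to 35.3 in MUM2B, which overlapped. HOXB1, whose start is printed above beside that of HOXA2, had 57.1 to 70.3 in OCM1 and 48.9 to 70.6 in MUM2B and was not tested.

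All 11 genes with numbers 4 to 8 were tested. In OCM1, 1 was higher and 4 were lower, beside 28.1% and 20.8% of all tested genes. Among the lower genes, HOXD4 passed the filter only through MUM2B. HOXB4, known for expanding blood stem cells, had 589, 546 and 555 in CANT1 OCM1 cells and 715, 645 and 531 in wild type OCM1 cells, against 2104, 2709 and 2902 in CANT1 MUM2B cells and 2249.5, 2214 and 2382 in wild type MUM2B cells. The 2 lines were tight and separate, also on wild type OCM1 replicate 1. The difference was -1.97 ± 0.11 (3.9-fold, adjusted p = 4.45e-07), and its dimmer second probe set had 69.4 to 173 in OCM1 and 255 to 470.0 in MUM2B.

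HOXB6 had 223, 334 and 294 in CANT1 OCM1 cells and 1510.0, 204 and 200.5 in wild type OCM1 cells, against 2061, 2778 and 2569 in CANT1 MUM2B cells and 1891, 2483 and 2596 in wild type MUM2B cells. Wild type OCM1 replicate 1 was several times above the other OCM1 arrays and still below every MUM2B array. The difference was -2.70 ± 0.42 (6.51-fold, adjusted p = 0.000526), or -3.22 without that array. HOXB5, which acts in gut neural crest, had 223, 193 and 179 in CANT1 OCM1 cells and 569, 201 and 173 in wild type OCM1 cells, against 541, 554 and 770.3 in CANT1 MUM2B cells and 867, 354 and 448 in wild type MUM2B cells. Its lines overlapped through wild type OCM1 replicate 1, and the difference was -1.17 ± 0.23 (adjusted p = 0.00209), or -1.35 without it.

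HOXD4, a hindbrain gene and paralogue of HOXB4 and HOXC4, had 61.6, 55.9 and 57.2 in CANT1 OCM1 cells and 91.4, 55.2 and 80.4 in wild type OCM1 cells, against 259, 353 and 259 in CANT1 MUM2B cells and 130.2, 381 and 381 in wild type MUM2B cells. OCM1 stayed below 100 on all arrays and MUM2B above 100 on all. The difference was -1.67 ± 0.22 (adjusted p = 0.000175), with -1.01 within replicate 1 and -1.99 ± 0.10 within replicates 2 and 3. Its window, printed above, held 4 CpG pairs.

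HOXC4 went the other way from HOXB4 and HOXD4, its paralogues. It had 669.9, 425 and 431 in CANT1 OCM1 cells and 1761, 539.9 and 579 in wild type OCM1 cells, against 118, 102 and 112 in CANT1 MUM2B cells and 135, 81.7 and 73.5 in wild type MUM2B cells. Every OCM1 array was above every MUM2B array, and wild type OCM1 replicate 1 was the highest. The difference was 2.33 ± 0.18 (5.02-fold, adjusted p = 5.02e-06), or 2.14 without that array. HOXC5, which has the same annotated start, had 271, 239 and 204 in CANT1 OCM1 cells and 235, 258 and 247 in wild type OCM1 cells, against 230.0, 172 and 154 in CANT1 MUM2B cells and 243, 222 and 205 in wild type MUM2B cells. Its lines overlapped, and its difference of 0.22 ± 0.09 did not pass (adjusted p = 0.0651). Without wild type OCM1 replicate 1 the HOXC5 difference was 0.29 (limma adjusted p = 0.0106).

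The remaining central genes did not pass with all 12 arrays. HOXB7, described as an activator of FGF2 in melanoma, was bright in both lines, at 1047 to 1219 on 5 OCM1 arrays, 797 on wild type OCM1 replicate 1 and 995 to 1563 in MUM2B, with a difference of -0.16 ± 0.14 (adjusted p = 0.392). HOXC6 was also bright in both, at 788 to 1367 on 5 OCM1 arrays, 3387 on wild type OCM1 replicate 1 and 750.3 to 1311 in MUM2B. Its difference was 0.14 ± 0.22 with all arrays (adjusted p = 0.628) and -0.11 without that array (adjusted p = 0.28), and neither passed. HOXD8 had 589 to 903 in OCM1 and 510.3 to 735 in MUM2B, with a difference of 0.27 ± 0.12 (adjusted p = 0.0826). The probe sets used for HOXD8 (of type _x_at) and for HOXB3, HOXD9 and HOXD13 (_s_at) are of types that can bind more than 1 transcript. Both lines thus carried HOXB7, HOXC6 and HOXD8 at levels well above the floor of 100.

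HOXB8, which holds myeloid progenitors in an immature state when overexpressed, had 82.2, 132 and 128 in CANT1 OCM1 cells and 1012, 76.7 and 79.7 in wild type OCM1 cells, against 257, 334 and 406 in CANT1 MUM2B cells and 271, 187 and 230.4 in wild type MUM2B cells. Wild type OCM1 replicate 1 was the highest of all arrays and the other 5 OCM1 arrays lay below every MUM2B array. The difference was -0.74 ± 0.47 with all arrays (adjusted p = 0.232) and -1.31 without that array (adjusted p = 3e-05). HOXC8, a gene of brachial motor neurons, showed a difference of -0.38 ± 0.20 (adjusted p = 0.151) with all arrays and -0.60 (adjusted p = 0.0015) without that array. Within replicate 1 both genes had the opposite sign, 0.22 for HOXB8 and 0.25 for HOXC8.

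Of the 11 genes with numbers 9 to 13, 8 were tested. In OCM1, 4 were higher and 0 lower, beside 28.1% and 20.8% of all tested genes. With replicates 2 and 3 alone, 4 were higher and 2 lower, beside 41.7% and 32.1%. HOXC10 and HOXD13 passed the filter only through OCM1, so these counts are not independent of the filter. HOXC9, which organises thoracic motor neurons, had 339.9, 249 and 277 in CANT1 OCM1 cells and 439, 213 and 283 in wild type OCM1 cells, against 106, 115 and 118 in CANT1 MUM2B cells and 117, 133 and 78.1 in wild type MUM2B cells. HOXC10, used at lumbar levels, had 183, 324 and 271 in CANT1 OCM1 cells and 177, 349 and 306 in wild type OCM1 cells, against 52.3, 47.7 and 70.3 in CANT1 MUM2B cells and 55.1, 73.7 and 55.5 in wild type MUM2B cells. In both genes the lines did not overlap, and HOXC10 stayed below 100 on all 6 MUM2B arrays. The differences were 1.19 ± 0.15 for HOXC9 (adjusted p = 0.000127) and 1.69 ± 0.13 for HOXC10 (adjusted p = 5.16e-06).

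HOXC13, which drives hair and nail keratins, had 478, 597 and 498 in CANT1 OCM1 cells and 596, 388 and 415 in wild type OCM1 cells, against 236, 142 and 159 in CANT1 MUM2B cells and 289, 154 and 112 in wild type MUM2B cells. All OCM1 arrays were above all MUM2B arrays, with a difference of 1.34 ± 0.15 (2.53-fold, adjusted p = 7.67e-05). HOXD13, which is needed for digit formation, had 320.5, 311 and 340.4 in CANT1 OCM1 cells and 807, 239 and 186 in wild type OCM1 cells, against 103, 93.2 and 74.0 in CANT1 MUM2B cells and 104, 82.8 and 68.0 in wild type MUM2B cells. The lines did not overlap, and wild type OCM1 replicate 1 was again the highest array. The difference was 1.61 ± 0.23 (adjusted p = 0.000336), or 1.34 without it, and its second probe set, at 202 to 902 in OCM1 and 59.9 to 94.9 in MUM2B, did not overlap either.

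HOXB9, which patterns the thoracic skeleton in mice, had 198, 388 and 396 in CANT1 OCM1 cells and 3729.6, 186 and 158 in wild type OCM1 cells, against 1179.5, 1252 and 1546 in CANT1 MUM2B cells and 1656, 1006 and 1032 in wild type MUM2B cells. Without wild type OCM1 replicate 1, all OCM1 arrays were below all MUM2B arrays, and that array was the highest of all 12. The difference was -1.58 ± 0.61 with all arrays (adjusted p = 0.0548) and -2.31 without that array (adjusted p = 8.21e-06). HOXD9 had the same layout, with 94.8 to 133 on 5 OCM1 arrays, 347 on wild type OCM1 replicate 1 and 208 to 249 in MUM2B. Its difference was -0.59 ± 0.22 with all arrays (adjusted p = 0.0503) and -0.85 without that array (adjusted p = 6.56e-06). The dimmer second probe set of HOXD9 had 55.4 to 87.5 on the same 5 OCM1 arrays and 79.8 to 133 in MUM2B, which overlapped. It had 138 on wild type OCM1 replicate 1. Without _x_at and _s_at probe sets the HOXD9 difference was -0.27 (limma adjusted p = 0.244).

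HOXB13, a prostate and tail gene, was low in both lines, at 162 to 221 in OCM1 and 139 to 264 in MUM2B, with a difference of 0.07 ± 0.09 (adjusted p = 0.542). HOXD10 had 288 to 379.5 in OCM1 and 245 to 317 in MUM2B by the probe set with the higher mean log2 signal, with a difference of 0.16 ± 0.10 (adjusted p = 0.195). Its second probe set read 46.7 to 151 on 11 arrays and 4220 on wild type OCM1 replicate 1, so the 2 probe sets of HOXD10 disagree on that array.

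**Figure D3:**
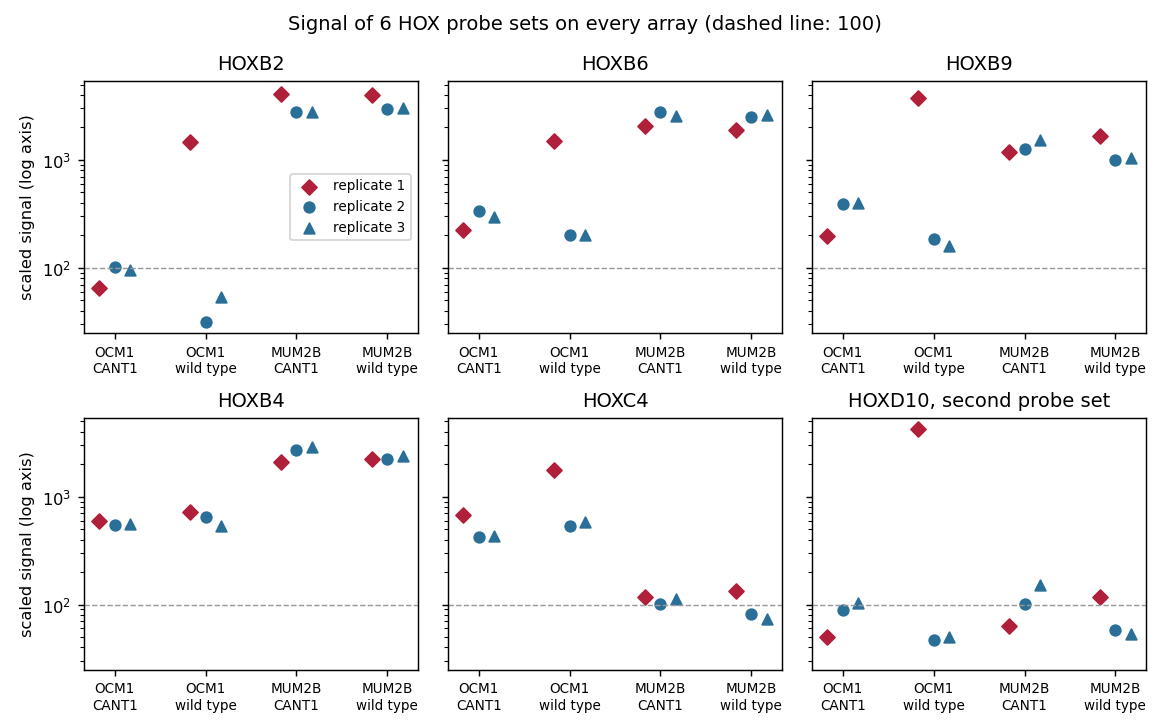
Scaled signal (log axis) of 6 HOX probe sets on each array, by group, with replicate 1 as red diamonds and replicates 2 and 3 as blue circles and triangles. Wild type OCM1 replicate 1 is far above the other OCM1 arrays for HOXB2, HOXB6, HOXB9 and the second HOXD10 probe set, and near them for HOXB4.

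Counted over arrays, 5 of the 22 tested HOX genes had every OCM1 array above every MUM2B array and 5 had every OCM1 array below, beside 13.6% and 9.66% of tested genes. Without wild type OCM1 replicate 1 the counts were 5 above and 10 below, beside 20.1% and 16.4% of tested genes. HOXC10, HOXD13, HOXA2, HOXB2 and HOXD4 are among the genes counted and passed the filter only through the line where they are high. The counts are therefore not independent of the filter. Without that array limma called 17 of the 22, 6 higher and 11 lower, beside 57.1% of tested genes. With replicates 2 and 3 alone, 18 of the 22 were called, 7 higher and 11 lower, beside 73.8% of tested genes (41.7% higher and 32.1% lower). Array weights called 19 of the 22, beside 76.8%.

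Genes with the same paralogue number did not all receive the same call. In group 4, HOXB4 and HOXD4 were lower and HOXC4 higher in OCM1. In groups 5 and 6, HOXB5 and HOXB6 were lower in OCM1 and HOXC5 and HOXC6 did not pass with all 12 arrays. HOXC5 was called higher without wild type OCM1 replicate 1. In group 13, HOXC13 and HOXD13 were higher in OCM1 and HOXB13 did not pass. In group 9, HOXC9 was higher, while HOXB9 and HOXD9 did not pass with all 12 arrays and were called lower without wild type OCM1 replicate 1. In group 8, HOXB8, HOXC8 and HOXD8 did not pass with all 12 arrays. Without wild type OCM1 replicate 1, HOXB8 and HOXC8 were called lower and HOXD8 was not called.

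In wild type cells alone, with 3 arrays per line, 10 of the 22 tested HOX genes were called, 5 higher and 5 lower in OCM1, beside 33% of tested genes (19.1% higher and 13.9% lower). All 10 were among the 12 of the combined comparison. HOXB3, at -1.50 ± 0.62 (adjusted p = 0.0945), and HOXB5, at -0.84 ± 0.32 (adjusted p = 0.0735), did not pass here. Within replicate 1 the wild type difference was -1.45 for HOXB2 and -0.32 for HOXB6, against -5.36 ± 0.12 and -3.46 ± 0.10 within replicates 2 and 3. HOXB9 was 1.16 within replicate 1 and -2.37 ± 0.12 within replicates 2 and 3, so the sets gave opposite signs. Without wild type OCM1 replicate 1, 16 of the 22 were called, beside 44% of tested genes. Replicates 2 and 3 alone also gave 16 of the 22, beside 64.7%, and array weights gave 18 of the 22, beside 68.8%.

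CANT1 cells were compared with wild type cells in each line. In OCM1, 0 of the 22 tested HOX genes passed with all 12 arrays by limma, beside 0.118% of 12715 genes. At an unadjusted p under 0.05 there was 1 HOX gene (HOXC4, -0.69 ± 0.25, adjusted p = 0.431) and 1177 genes in all, and array weights called 9 HOX genes, beside 29.2% of tested genes. In MUM2B, 0 HOX genes passed, beside 0% of tested genes. At an unadjusted p under 0.05 there were 0 HOX genes and 220 genes in all, and array weights called 3 HOX genes, beside 18.9%. The difference between the lines in the CANT1 effect passed for 0 HOX genes, beside 0.0472% of tested genes, with 1 HOX gene (HOXC4) and 634 genes in all at an unadjusted p under 0.05. Array weights called 2, beside 22.9%, and replicates 2 and 3 alone called 6, beside 21.9%. The median CANT1 difference over the 27 genes was -0.0674 in OCM1 and 0.0579 in MUM2B, beside 0.00137 and -0.0194 over all 18132 genes.

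**Figure D4:**
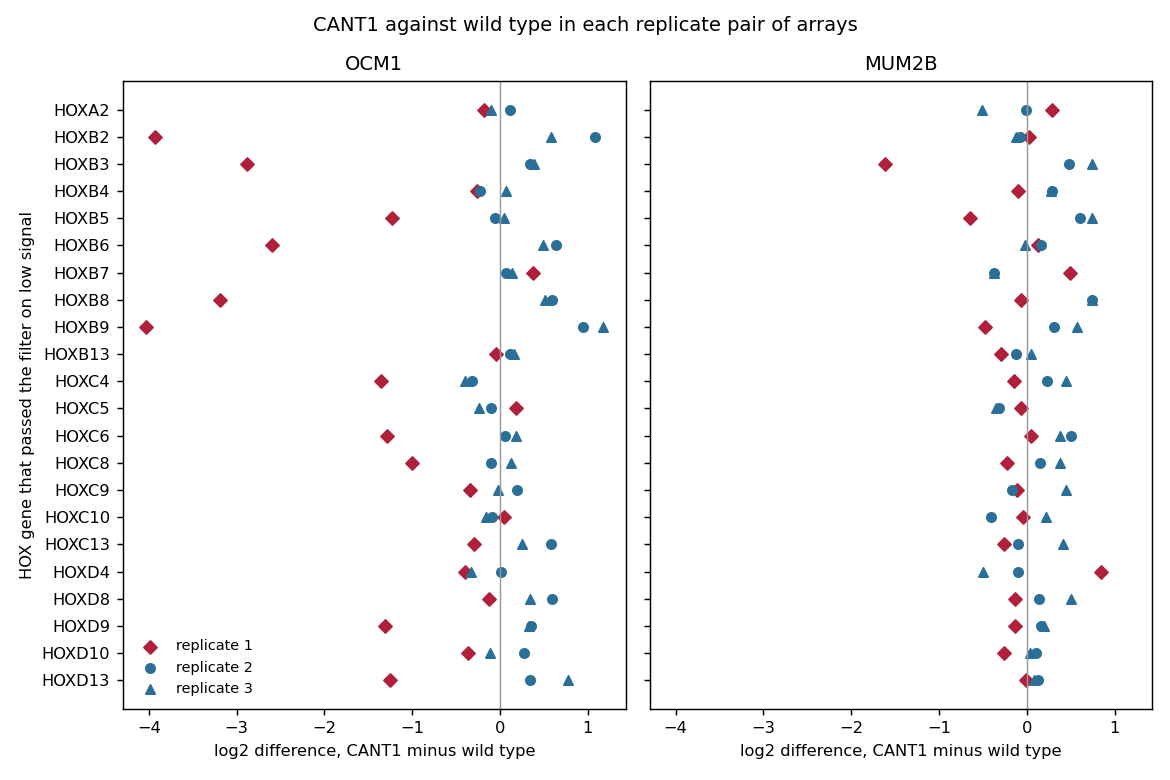
Log2 difference between CANT1 and wild type cells for each HOX gene that passed the filter, by replicate number (red diamonds for replicate 1, blue circles and triangles for replicates 2 and 3), in OCM1 (left) and MUM2B (right). In OCM1, replicate 1 reaches -4.04 for HOXB9 while replicates 2 and 3 lie above 0 for HOXB2, HOXB6, HOXB8 and HOXB9.

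The 2 labelled sets disagreed in OCM1. Within replicate 1, CANT1 minus wild type was -4.04 for HOXB9, -3.93 for HOXB2, -3.19 for HOXB8, -2.89 for HOXB3 and -2.60 for HOXB6. Each of these values contains the wild type OCM1 replicate 1 array. With replicates 2 and 3 alone, 9 of the 22 were called, 8 higher and 1 lower in CANT1 cells, beside 23.3% of tested genes (13.7% higher and 9.63% lower). The 8 were HOXB2, HOXB6, HOXB8, HOXB9, HOXC13, HOXD8, HOXD9 and HOXD13. Of the 7 melanocyte markers, 3 passed in the same fit, TYRP1 at -2.11 ± 0.14, S100B at 0.56 ± 0.12 and PMEL at 0.46 ± 0.09, and their part in the HOX values was not tested. The summed melanocyte signal on these arrays was 75700 and 78540 in CANT1 OCM1 cells and 76990 and 75070 in wild type OCM1 cells.

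HOXB9 had 198, 388 and 396 in CANT1 OCM1 cells, against 3729.6, 186 and 158 in wild type OCM1 cells. Within replicates 2 and 3, both CANT1 arrays were above both wild type arrays, by 1.06 ± 0.12 (2.08-fold, limma adjusted p = 0.00011). HOXB2 had 65.5, 102 and 95.2 in CANT1 OCM1 cells, against 1453, 31.7 and 53.1 in wild type OCM1 cells. Apart from wild type replicate 1 these are signals of 102 or less, and the difference within replicates 2 and 3 was 0.83 ± 0.12 (adjusted p = 0.000943). For the other genes called higher in those replicates, the differences were 0.56 ± 0.10 for HOXB6, 0.55 ± 0.12 for HOXB8, 0.55 ± 0.13 for HOXD13, 0.47 ± 0.12 for HOXD8, 0.42 ± 0.13 for HOXC13 and 0.35 ± 0.09 for HOXD9.

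HOXC4 was the HOX gene that was lower in CANT1 OCM1 cells, with 669.9, 425 and 431 in CANT1 OCM1 cells, against 1761, 539.9 and 579 in wild type OCM1 cells. The wild type array was above the CANT1 array at each replicate number. Its difference was -0.36 ± 0.09 within replicates 2 and 3 (adjusted p = 0.0177) and -1.35 within replicate 1. With all arrays except wild type OCM1 replicate 1, 1 HOX gene passed, HOXB6 at 0.55 (adjusted p = 0.0435), beside 1.1% of tested genes.

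In MUM2B, replicates 2 and 3 alone gave 8 of the 22 HOX genes, 6 higher and 2 lower in CANT1 cells, beside 25% of tested genes (14.4% higher and 10.7% lower). HOXB8 had 257, 334 and 406 in CANT1 MUM2B cells, against 271, 187 and 230.4 in wild type MUM2B cells. Both CANT1 arrays of replicates 2 and 3 were above both wild type arrays, by 0.74 ± 0.12 (adjusted p = 0.0017), while replicate 1 differed by -0.07. HOXB5 rose by 0.67 ± 0.15 (adjusted p = 0.00918) within replicates 2 and 3 and differed by -0.65 within replicate 1. The others called higher were HOXB3 at 0.62 ± 0.15, HOXC6 at 0.45 ± 0.09, HOXB9 at 0.44 ± 0.12 and HOXC4 at 0.34 ± 0.09. Of the markers, CDH5 at 0.72 ± 0.15, KRT19 at 0.61 ± 0.15 and PMEL at 0.38 ± 0.09 passed in the same fit, and their part in the HOX values was not tested. The 3 endothelial markers summed to 4461 and 4881 in CANT1 MUM2B cells and 2630 and 3169 in wild type MUM2B cells on these arrays. The 5 epithelial markers summed to 22410 and 21700 in CANT1 MUM2B cells and 23270 and 22670 in wild type MUM2B cells.

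HOXB7 at -0.37 ± 0.09 and HOXC5 at -0.33 ± 0.10 were the genes called lower in MUM2B within replicates 2 and 3. HOXB3 had 1437, 1009 and 1417 in CANT1 MUM2B cells, against 4451, 712 and 833 in wild type MUM2B cells. Its wild type replicate 1 array was the highest of all 12 arrays, and the replicate 1 difference was -1.61. HOXB2 had 4106, 2806 and 2788 in CANT1 MUM2B cells, against 4034, 2963 and 3027 in wild type MUM2B cells, and its CANT1 difference was -0.06 ± 0.80 with all arrays and -0.10 ± 0.12 within replicates 2 and 3. HOXB4 differed by 0.16 ± 0.15 and 0.28 ± 0.11 in the same fits. None of these HOXB2 and HOXB4 values passed.

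PBX, MEIS and PKNOX proteins bind DNA together with HOX proteins. Of 9 such genes, 8 were measured and 7 tested, and 5 were higher and 2 lower in OCM1 than in MUM2B, where 28.1% of all tested genes were higher and 20.8% lower. PBX4 had 142, 116 and 147 in CANT1 OCM1 cells and 121, 184 and 208 in wild type OCM1 cells, against 38.3, 34.7 and 22.1 in CANT1 MUM2B cells and 50.2, 29.7 and 39.7 in wild type MUM2B cells. All MUM2B arrays were below 100 and all OCM1 arrays above, a difference of 1.44 ± 0.14 (adjusted p = 2.36e-05). PBX4 thus passed the filter only through OCM1, and its call is not independent of the filter. PBX3 was lower in OCM1, with a difference of -1.20 ± 0.25 (adjusted p = 0.00306), and had 539 to 687 on 5 OCM1 arrays, 2353 on wild type OCM1 replicate 1 and 1595 to 2051 in MUM2B. PKNOX1 was also lower in OCM1, with a difference of -1.08 ± 0.15 (adjusted p = 3e-04). MEIS1 stayed at 62.4 to 132 and was not tested.

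Of 8 chromatin factors that keep HOX genes active, all were tested; ASH2L and RBBP5 were higher in OCM1, and KMT2A and WDR5 were lower, which is 4 of 8 beside 48.9% of all tested genes. WDR5, a shared subunit of the KMT2 methyltransferase complexes, differed by -1.37 ± 0.26 (adjusted p = 0.00168), with 380.3 to 477 on 5 OCM1 arrays, 1504 on wild type OCM1 replicate 1 and 1215 to 1942 in MUM2B. KMT2A, the methyltransferase best known for maintaining HOX genes, differed by -0.64 ± 0.15 (adjusted p = 0.00704). WDR5 and PBX3 on that array were within or above the MUM2B range, as HOXB8 and HOXB9 were. KMT2A, at 908, was within its MUM2B range of 704 to 1183. PKNOX1, also lower in OCM1, was at 252 on that array, below every MUM2B array (324 to 464).

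Of 11 genes next to the clusters, 10 were measured and 7 tested; MTX2 and LNPK, beside HOXD, were higher in OCM1, and SKAP2, beside HOXA, was lower at -1.21 ± 0.15 (adjusted p = 0.000145). These 3 of 7 also stand beside 48.9% of all tested genes. Of 8 ParaHox and EVX homeobox genes, relatives of the HOX genes, 5 were tested and 0 passed. CDX2, which switches on HOX genes in the tail of the embryo and marks intestine, had 449.7 on wild type OCM1 replicate 1 and 85.5 to 123 on the other 11 arrays. Of 18 noncoding RNAs of the clusters, 1 was measured, HOXB-AS3, at 72.2 to 139.7 with a difference of 0.12 ± 0.11 between the lines (adjusted p = 0.423). No member of these lists passed in either CANT1 comparison with all 12 arrays. With replicates 2 and 3 alone, the members that passed in OCM1 were CALCOCO1 at 0.66 ± 0.15, PBX4 at -0.48 ± 0.14, DOT1L at -0.39 ± 0.12 and SKAP2 at -0.36 ± 0.10. In MUM2B they were SKAP2 at 0.71 ± 0.10, WDR5 at -0.58 ± 0.10, CALCOCO1 at 0.50 ± 0.15, HIBADH at 0.36 ± 0.09 and PKNOX1 at -0.33 ± 0.11.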

How the data were processed

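The deposited values, 1 per probe set and array, were read as log2 signals; per the submitters' processing notes MAS5 made them, and its version, the log base and any normalization are not given in the sources used here. Each value was taken out of log2, scaled to a 2% trimmed mean of 500 per array and returned to log2 after adding 32. Of 49395 probe sets, 44988 named 1 gene. Genes whose signal reached 100 on 3 or more arrays (12715, or 12105 with replicates 2 and 3) were tested with limma 3.58.1 in R 4.3.3, with 1 term per group and 1 for the labelled set (replicate 1, or replicates 2 and 3), and Benjamini-Hochberg adjustment at 0.05 over all tested genes. No depth exists for arrays, and their number limits precision. The CANT1 comparisons and the wild type line comparison share wild type arrays.

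Every HOX gene was accounted for, those that reached 100 on 3 arrays by name with values; other genes came from lists of HOX partners, neighbours, relatives, regulators and cell type markers. Members and lists were chosen with earlier results of these data known. DCT was not analysed here. Deviations of arrays from their group means, correlated over all tested genes, were above 0.1 for every same-numbered pair between CANT1 and wild type OCM1 (0.138 to 0.171) and between the lines in wild type (0.197 to 0.224) and CANT1 cells (0.426 to 0.623), and 0.0293 to 0.465 between CANT1 and wild type MUM2B. Some pairs of different numbers within replicates 2 and 3 correlated as much, up to 0.221 between CANT1 and wild type OCM1, 0.478 between CANT1 and wild type MUM2B and 0.554 between the lines in CANT1 cells. Alternatives covered normalization, offset, filter, set term, replicate block, arrays, variance model, probe sets and threshold.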

Additional observations from a re-analysis of the deposited data

Results flagged for a closer look

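The test of the difference between the lines in the CANT1 effect (OCM1 minus MUM2B) passed for 6 HOX genes with replicates 2 and 3 alone, beside 21.9% of tested genes (11.3% higher and 10.6% lower), and for 0 with all 12 arrays. HOXB2 was higher by 0.93 ± 0.18 (limma adjusted p = 0.00452), with 0.83 ± 0.12 in OCM1 and -0.10 ± 0.12 in MUM2B; the OCM1 signals behind it were 102 or less. HOXB9 was higher by 0.62 ± 0.16 (adjusted p = 0.0192), with 1.06 ± 0.12 in OCM1 and 0.44 ± 0.12 in MUM2B. HOXB6 was higher by 0.49 ± 0.14 (adjusted p = 0.0269), with 0.56 ± 0.10 in OCM1 and 0.07 ± 0.10 in MUM2B. HOXB7 was higher by 0.47 ± 0.13 (adjusted p = 0.0215), with 0.10 ± 0.09 in OCM1 and -0.37 ± 0.09 in MUM2B.

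HOXC4 was lower, with a difference of -0.71 ± 0.13 (adjusted p = 0.00432), with -0.36 ± 0.09 in OCM1 and 0.34 ± 0.09 in MUM2B. HOXB5 was lower, with a difference of -0.68 ± 0.21 (adjusted p = 0.0434), with -0.01 ± 0.15 in OCM1 and 0.67 ± 0.15 in MUM2B. The replicate 1 values of the same difference were -3.96 for HOXB2, -3.56 for HOXB9, -2.72 for HOXB6, -0.12 for HOXB7, -1.20 for HOXC4 and -0.58 for HOXB5, so HOXC4 and HOXB5 kept their sign in both sets and the other 4 did not. With 3 arrays per group, no single array was tested as an outlier.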

How the results depend on the processing

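Each of the 12 HOX genes called between the lines stayed called with its direction in every alternative that tested it, except HOXA2 under the 2-fold threshold. Leaving out 1 array at a time gave 12 to 17 HOX genes for the lines, 8 to 16 in wild type cells, 0 for CANT1 in MUM2B, 0 to 1 for CANT1 in OCM1 and 0 for the difference of the CANT1 effects; the highest counts came without wild type OCM1 replicate 1 (17, 16 and 1). In wild type cells HOXA2 was lost in 5 alternatives (the 2-fold threshold, and without replicate 2 or 3 of either wild type line) and HOXB6 in 4 (only the arrays compared, and without wild type OCM1 replicate 2 or 3 or wild type MUM2B replicate 3). Array weights, whose estimate stopped before it converged, gave 19 for the lines, 18 in wild type cells, 3 for CANT1 in MUM2B, 9 for CANT1 in OCM1 and 2 for the difference. Replicates 2 and 3 alone gave 18, 16, 8, 9 and 6.

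The pairing was tried as a replicate block in place of the set term and gave 12, 10, 0, 0 and 0 HOX genes for these 5 comparisons, which are the same genes, so it changed no HOX call. Within replicates 2 and 3 the replicate block, chosen after seeing the data, gave 18, 16, 8, 10 and 6; the added gene was HOXB3 for CANT1 in OCM1, at 0.37.

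Some CANT1 differences passed in an alternative with the sign opposite to that with all 12 arrays. For HOXB3 in MUM2B this was 0.62 with replicates 2 and 3, with or without the block. In OCM1 the same fits gave HOXB2 0.83, HOXB6 0.56, HOXB8 0.55, HOXB9 1.06, HOXD13 0.55 and HOXD9 0.35. Array weights gave HOXB2 0.70, HOXB6 0.47, HOXB8 0.50, HOXB9 1.01, HOXD13 0.59 and HOXD9 0.33, and HOXB6 ranged over -0.91 to 0.55 with 1 array left out, the highest without wild type OCM1 replicate 1. For the difference of the effects, replicates 2 and 3 gave HOXB2 0.93, HOXB6 0.49 and HOXB9 0.62, and array weights HOXB2 0.79. The cause was not tested. A fit on only the arrays compared gave no separate value for the lines or for the difference, which use all 12. Signals near the floor of 100, as for HOXA2 and for HOXB2 in OCM1, limit the size of any fold.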
